A study of Mus musculus with 8 samples.

Results

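Histone methyltransferases attach methyl groups to lysine or arginine residues of histones, and histone demethylases remove them. The genes described here are those of mouse enzymes of both kinds, together with relatives that share a catalytic domain, followed over 3 days in which bone marrow macrophages turned toward osteoclasts. They were chosen by gene symbol alone: symbols beginning with Kdm, Kmt2, Kmt5, Mll1 to Mll5, Suv420h, Suv39h, Prmt, Setd, Setdb, Smyd, Ezh, Ehmt, Nsd, Whsc1 or Jmjd, and Dot1l, Ash1l and Carm1. The array held 50 such genes, of which 41 were detected (detection p-value under 0.05 on at least 2 of 8 arrays), out of 8663 detected named genes in all. Nsdhl, a sterol dehydrogenase gene, and Ezhip share a prefix only and were left out.

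Bone marrow cells of C57BL/6 mice aged 6 to 8 weeks were grown with M-CSF at 30 ng/ml for 3 days, and the adherent cells, bone marrow-derived macrophages, then received RANKL, the factor that drives osteoclast formation, at 50 ng/ml beside M-CSF at the same dose. The 4 groups were days 0, 1, 2 and 3 of that culture, with 2 arrays each, and all 4 had received M-CSF before. There was no group that stayed on M-CSF without RANKL on days 1 to 3, so RANKL and time cannot be told apart. Nothing in the labels says whether both arrays of a day hold separate cultures or animals, or how many mice were pooled. The p-values thus rest on the spread between these arrays alone, which may be technical.

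Lysine methylation on histone H3 is read according to its position: methylation at K4, K36 and K79 is found over active genes, and methylation at K9 and K27 over silent ones. Methylation of H4 at K20 is linked to compact chromatin and to the cell cycle, and arginine methylation by the PRMT enzymes reaches histones as well as splicing and ribosomal proteins. Lysine marks are removed by amine oxidases of the KDM1 type or by JmjC enzymes, which use iron, oxygen and 2-oxoglutarate. Macrophages change these marks at many genes when they take on a new function, and osteoclast formation has been studied in the same terms.

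On each array 11281 to 11361 of 25697 probes were detected, and r between both arrays of a day was 0.994 to 0.996 across genes, which are not independent replicates. Markers fitted the label of the cells: 10 of 11 macrophage markers on the array were detected, and their summed intensity went from 61667 to 65966 at day 0 to 30008 to 31184 at day 3. Csf1r and Cd68 were not analysed here. The summed intensity of 12 osteoclast markers went from 8832 to 9024 at day 0 to 114532 to 114870 at day 3, though Atp6v0d2 was not detected. Markers of other marrow cells were dimmer: 10 neutrophil and granulocyte precursor genes summed to 1436 to 1553 at day 0 and to 429.8 to 434.9 at day 3, and 3 detected genes each of the B lineage, T and NK, dendritic and stromal lists summed to between 80.8 and 1412 on any array. The 2 detected erythroid and megakaryocyte genes, Pf4 and Klf1, summed to 1640 to 2045 at day 0 and to 108.0 to 120.8 at day 3, and 2 mast cell genes to 65.3 to 118.0 on any array. Of these lists Cd79a, Pax5, Cd3e, Ncr1, Gata1, Clec9a and Col3a1, among others, were not detected. Detected were Cd79b, Vpreb1, Ebf1, Il7r, Klrd1, Klrb1c, Siglech, Zbtb46, Batf3, Col1a1, Alpl and Dcn. Cd79b had a mean log2 intensity of 7.39 at day 0, and Dcn, undetected at day 0, one of 7.44 at day 1. The part of these cells in the results below was not tested. Cell cycle genes were lower at days 2 and 3. Of 24 genes of S phase, 3 were lower and 2 higher at day 1 (21.9% and 24.0% of all genes). At day 2, 21 were lower and 1 higher (26.6% and 27.8%), and at day 3, 22 and 1 (29.8% and 29.2%). The summed intensity of these 24 genes went from 56552 to 56559 at day 0 to 19656 to 19667 at day 3. In whole cultures, fewer cells of a type and less RNA per cell cannot be told apart.

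More genes of histone methylation rose than fell on day 1, and on day 3 the numbers were close. Changes were tested with limma on log2 intensities over all 8663 genes, with a Benjamini-Hochberg adjusted p under 0.05 as the call, and ± marks the standard error of a change between days (n = 2 arrays per day). At day 1, 20 of 41 members were higher than at day 0 (48.8%, against 24.0% of all tested genes) and 4 were lower (9.76%, against 21.9%), with a median log2 change of 0.27 for the members and 0.03 for all genes. At day 2, 10 were higher than at day 0 (against a share of 27.8% of all genes) and 4 lower (26.6%). At day 3, 10 were higher (29.2%) and 9 lower (29.8%). The comparisons with day 0 share its 2 arrays. With 2 arrays a day, arrays often did not overlap: this held for 33 members at day 1 against day 0 (72.8% of all genes), 25 at day 2 (76.8%) and 29 at day 3 (77.5%), for 35 at day 2 against day 1 (75.1%), and for 24 at day 3 against day 2 (63.0%).

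Set against the day before, day 2 had 10 members higher (23.4% of all genes) and 16 lower (39.0% of members, against 25.0% of all genes). Day 3 had 2 members higher than at day 2 (10.6%) and 8 lower (11.3%). Without day 1 replicate 2 the numbers for day 2 against day 1 were 5 higher and 10 lower, and without either array of day 2 or of day 3 no more than 3 members were lower in the comparison of day 3 with day 2. In the moderated F test over the 4 days 29 members were called (70.7%, against 72.5% of all genes). Among them the highest of the 4 day means was that of day 0 for 3 genes (Ezh2, Prmt2 and Setd3, against 21.6% of all genes), of day 1 for 16 (39.0% of members, against 19.8%), of day 2 for Dot1l and Kdm6b (8.95%) and of day 3 for 8 (19.5%, against 22.1%).

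**Figure D1:**
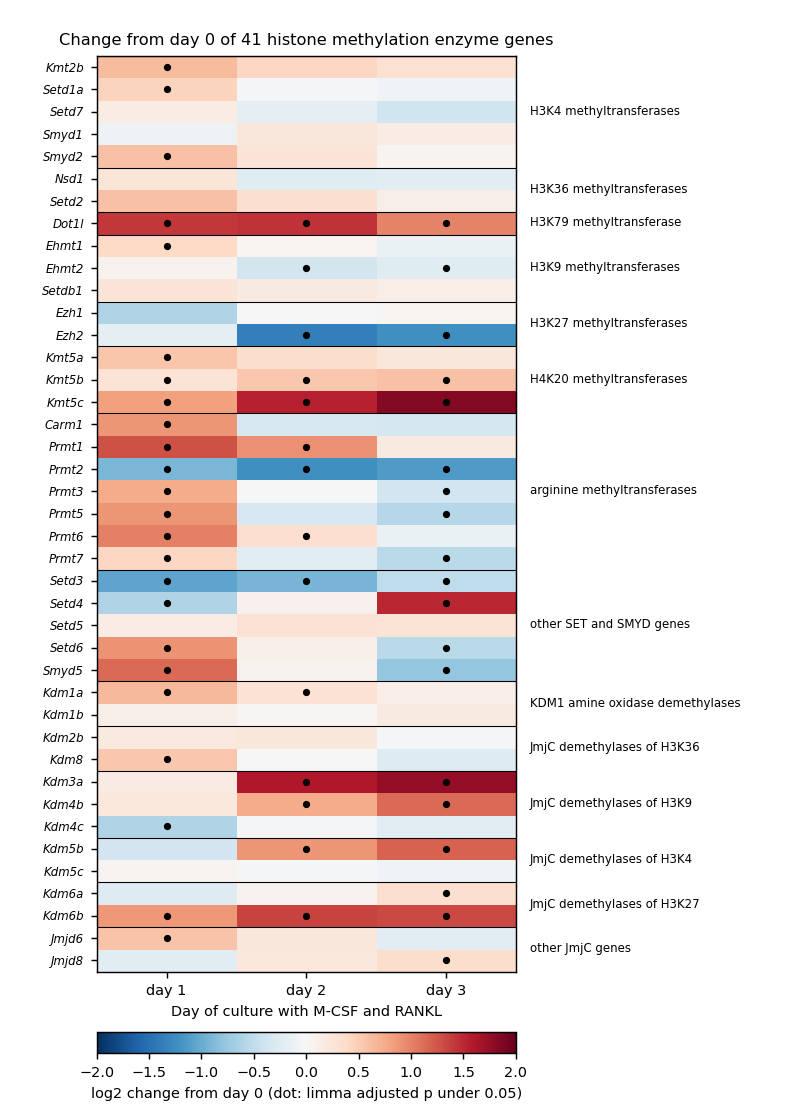
Change from day 0 of the 41 detected genes. Each row is a gene, grouped by the residue its enzyme acts on, each column a day, and colour gives the log2 change from day 0 (mean of 2 arrays per day), with a dot where limma's adjusted p was under 0.05. The arginine methyltransferases other than Prmt2, and Smyd5 and Setd6, are red at day 1 and pale or blue at day 3, while Kdm3a, Kdm4b, Kdm5b, Kdm6b and Kmt5c are red at days 2 and 3.

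**Figure D2:**
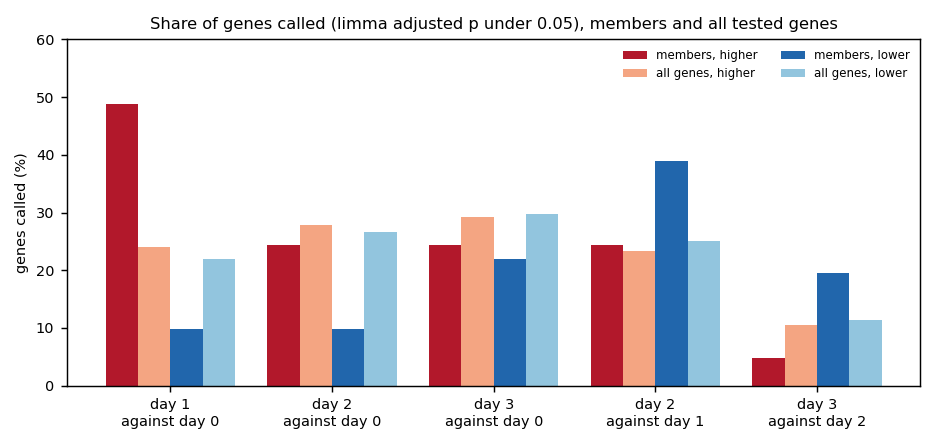
Share of genes called in each comparison. Bars give the percentage of the 41 members and of all 8663 tested genes that were higher (red tones) or lower (blue tones) at limma's adjusted p under 0.05. The members' bar for higher genes at day 1 stands at 48.8% against 24.0% of all genes, and the bars for days 2 and 3 against day 0 lie below those of all genes.

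Most arginine methyltransferase genes were higher on day 1 and lower again on day 2. Of 7 detected genes 6 were higher at day 1 (24.0% of all genes) and 1 was lower (21.9%). At day 2 against day 1, 6 were lower (all but Prmt1) and none higher, against 25.0% and 23.4% of all genes. At day 3 against day 0, 4 were lower (29.8%) and none higher (29.2%). These comparisons share the arrays of day 0 or day 1.

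Prmt1, the main source of asymmetric dimethylarginine, measured 11.34 and 11.19 (log2 intensity) at day 0, 12.64 and 12.44 at day 1, 12.31 and 12.06 at day 2 and 11.22 and 11.67 at day 3. Both arrays of days 1 and 2 lay above all arrays of days 0 and 3. The increase at day 1 was 1.27 ± 0.17 (2.42-fold, limma adjusted p = 0.00116), and day 2 stood 0.92 ± 0.17 above day 0. The decrease from day 2 to day 3 was 0.74 (-0.74 ± 0.17, limma adjusted p = 0.0285), and it lost its call without either array of day 2 or without day 3 replicate 1 (adjusted p = 0.135, 0.0679 and 0.0972).

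Prmt5, which makes symmetric dimethylarginine, measured 9.80 and 9.35 at day 0, 10.45 and 10.46 at day 1, 9.21 and 9.29 at day 2 and 8.88 and 9.11 at day 3. The day 1 arrays were the highest and the day 3 arrays the lowest. It rose by 0.88 ± 0.16 at day 1 (limma adjusted p = 0.00399) and changed by -1.20 ± 0.16 from day 1 to day 2 (limma adjusted p = 0.000943), and its other 2 detected probes gave 1.17 and 0.92 at day 1. At day 3 it was lower than at day 0 by -0.57 ± 0.16, which became -0.35 and lost its call without day 0 replicate 1, and lost it without day 3 replicate 1 as well.

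Carm1, a coactivator that methylates H3 arginines, was high on day 1 alone. It measured 7.34 and 7.71 at day 0, 8.43 and 8.40 at day 1, 7.21 and 7.21 at day 2 and 7.27 and 7.08 at day 3. Only the day 1 arrays stood apart from the others by more than the spread between replicates. It rose by 0.89 ± 0.14 and then changed by -1.20 ± 0.14 (limma adjusted p = 0.00192 and 0.00049). With no background correction the changes of Carm1 were 0.56 and -0.73, still called.

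Prmt6, an H3 arginine methyltransferase, was higher at day 1 by 1.01 ± 0.11. Prmt3, which methylates a ribosomal protein, was higher by 0.75 ± 0.09, and Prmt7, which adds a single methyl group, by 0.42 ± 0.08. All were lower at day 2 than at day 1 (-0.67 ± 0.11, -0.76 ± 0.09 and -0.62 ± 0.08). At day 3 Prmt3 and Prmt7 lay below their day 0 level (-0.38 ± 0.09 and -0.55 ± 0.08). The other 3 detected probes of Prmt7 gave 0.60, 1.06 and 0.72 at day 1, and the 0.60 did not pass (limma adjusted p = 0.0567). At day 3 these probes of Prmt7 gave -0.54, -0.23 and -0.46, of which the -0.46 alone was called. The mean over the probes of Prmt7 was 0.70 higher at day 1.

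Prmt2, a member of the family with weak activity and a role as a coactivator, went the other way. It measured 10.69 and 10.77 at day 0, 9.83 and 9.79 at day 1, 9.59 and 9.43 at day 2 and 9.62 and 9.58 at day 3. The day 0 arrays lay above all others. It fell by 0.92 at day 1 (-0.92 ± 0.09, limma adjusted p = 0.000286) and stood at -1.22 ± 0.09 at day 2 and -1.13 ± 0.09 at day 3, and its other detected probe gave -0.84, -1.04 and -1.01.

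**Figure D3:**
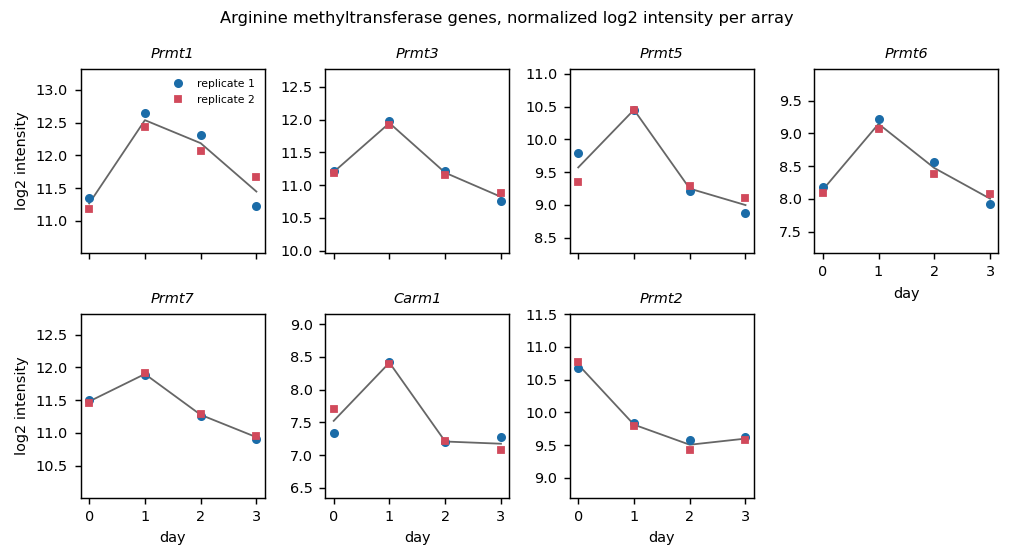
Arginine methyltransferase genes by day. Each panel gives 1 gene, with normalized log2 intensity on the vertical axis and the day on the horizontal axis; points are single arrays, lines join the day means, and all panels span the same range of log2 units. In 6 panels both day 1 arrays lie above both day 0 arrays, and in the panel of Prmt2 both lie below.

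Partners of these enzymes were followed beside them. Of 6 detected genes listed as partners of PRMT5 and PRMT1, 4 were higher and 2 lower at day 1 (24.0% and 21.9% of all genes). Clns1a and Wdr77, which bind PRMT5 and direct it to its substrates, rose by 1.01 ± 0.10 and 0.81 ± 0.08, and Clns1a stood at -0.92 at day 3. Btg1, an antiproliferative protein that binds PRMT1, rose by 1.58 ± 0.08 at day 1 and was still 1.14 higher at day 3. Over the 6 genes the changes ran from -1.43 to 1.58 at day 1 and from -0.97 to 1.98 at day 3. The -1.43 and the 1.98 belonged to genes not named here. Coprs, which links PRMT5 to histones, was lower on each day, by -0.34, -0.63 and -0.97. Of 8 detected genes of the S-adenosylmethionine cycle, which supplies the methyl groups, 2 were higher and 2 lower at day 1, near the shares of all genes. Those higher were Srm by 1.42 and Mtap by 1.09. At day 3 Ahcyl2 and Adk stood lowest, at -2.36 and -1.79.

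The promoters of 3 arginine methyltransferase genes that rose on day 1 are shown as examples, chosen after all windows had been searched. They differed later: at day 2 Prmt1 was still 0.92 above day 0, with Prmt3 at -0.01 and Prmt5 at -0.32. Each is the window of 250 bases before to 50 after the start in the RefSeq table (GRCm38.p6), 5′ to 3′ on the gene's strand. Capitals mark the E-box CACGTG in Prmt1 and Prmt3 and the letters CCAAT or ATTGG in Prmt5, where no E-box was found. The windows are chr7:44986371-44986670 (minus strand), chr7:49778108-49778407 (plus strand) and chr14:54517421-54517720 (minus strand).
Prmt1: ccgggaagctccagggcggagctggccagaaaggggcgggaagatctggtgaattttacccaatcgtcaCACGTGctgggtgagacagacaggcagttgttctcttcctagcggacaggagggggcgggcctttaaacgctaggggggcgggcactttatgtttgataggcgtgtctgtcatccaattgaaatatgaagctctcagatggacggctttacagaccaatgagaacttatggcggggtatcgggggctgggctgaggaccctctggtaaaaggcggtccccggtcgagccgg
Prmt3: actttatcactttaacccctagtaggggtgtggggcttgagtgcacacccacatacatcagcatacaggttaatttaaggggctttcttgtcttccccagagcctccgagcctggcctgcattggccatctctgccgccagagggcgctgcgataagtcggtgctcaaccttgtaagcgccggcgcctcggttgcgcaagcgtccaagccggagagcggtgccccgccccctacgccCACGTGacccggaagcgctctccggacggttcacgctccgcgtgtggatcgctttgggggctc
Prmt5: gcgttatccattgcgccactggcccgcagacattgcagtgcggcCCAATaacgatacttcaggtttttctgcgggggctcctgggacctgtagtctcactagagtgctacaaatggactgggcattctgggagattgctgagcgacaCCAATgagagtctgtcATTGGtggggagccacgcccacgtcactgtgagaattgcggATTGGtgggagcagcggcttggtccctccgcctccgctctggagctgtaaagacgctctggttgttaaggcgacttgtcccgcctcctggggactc

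In these windows Prmt1 and Prmt3 each held 1 E-box and Prmt5 held 4 CCAAT boxes. CCAAT, unmarked there, also stood in the windows of Prmt1 and Prmt3, and in that of Prmt2, which fell. The windows of Prmt6 and Prmt7, which rose on day 1 too, held neither the E-box nor CCAAT. The table held 32851 windows, and 7.15% of them held CACGTG and 37.4% held CCAAT on either strand. A promoter window was found for 36 of the 41 members, 47 windows in all, of which 12.8% held CACGTG, in Prmt1, Prmt3, Ehmt2, Kdm4c and Kdm6a. Of these 5 genes Kdm4c was lower at day 1, and Ehmt2 and Kdm6a were not called there. CCAAT stood in 48.9% of the members' windows, CCGGAAG (the ETS motif) in 17.0% against 8.86% of all windows, TGANTCA (the AP-1 motif) in 6.38% against 7.81% and GNACGTG (which can overlap CACGTG) in 8.51% against 6.94%. The loose NF-kB pattern (GGG and CC with any 5 bases between) and the loose NFAT pattern GGAAAN occurred in 50.8% and 61.2% of all windows and in 72.3% and 46.8% of the members' windows. In all 8 motifs were searched, on both strands, and a match is a description of the letters only.

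Among enzymes of active marks, Dot1l, the H3K79 methyltransferase gene, changed most. It measured 7.88 and 7.89 at day 0, 9.28 and 9.32 at day 1, 9.34 and 9.31 at day 2 and 8.83 and 8.91 at day 3. All later arrays lay above both day 0 arrays, by more than a log2 unit at days 1 and 2. The increase was 1.42 ± 0.08 at day 1, 1.44 ± 0.08 at day 2 (2.72-fold, limma adjusted p = 9.68e-06) and 0.99 ± 0.08 at day 3. The decrease from day 2 to day 3 (-0.45 ± 0.08) lost its call without either array of day 2 or without day 3 replicate 1 (adjusted p = 0.0686, 0.0559 and 0.0508). Of 8 detected partners of DOT1L and of the elongation complex it works with, Aff4 and Mllt3 were higher at day 3 (1.56 ± 0.25 and 1.32 ± 0.21), Cdk9 was higher at days 1 and 2 (0.45 and 0.42), and Aff1 was lower at day 1 (-0.32).

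Of 5 detected H3K4 methyltransferase genes 3 were higher at day 1 (24.0% of all genes), and none was called against day 0 at days 2 or 3. Kmt2b, of the MLL family, rose by 0.63 ± 0.15 and Setd1a, of the SET1 family, by 0.44 ± 0.09. Smyd2, which also methylates non-histone proteins, rose by 0.58 ± 0.10, and its other detected probe gave 0.64. The call of Kmt2b was lost without day 0 replicate 1 or either array of day 1 (adjusted p = 0.076, 0.0585 and 0.0658). Setd7 was detected on 2 of 8 arrays, at deposited signals of 154.6 to 188.1, and Smyd1, known from muscle, passed in no comparison.

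Of 9 detected genes for subunits and partners of the MLL and SET1 complexes (COMPASS) 3 were higher at day 1 (24.0% of all genes). At day 2, 5 were lower (26.6%) and 1 higher (27.8%), and at day 3, 6 were lower (29.8%). Of the core subunits, Wdr5 and Ash2l stood at -0.61 ± 0.09 and -0.40 ± 0.08 at day 2, and Rbbp5 at -0.45. Dpy30, a core subunit as well, was higher at day 1 (0.37 ± 0.08) and lower at days 2 and 3 (-0.38 and -0.88). Cxxc1, a subunit of the SET1 complexes that binds CpG-rich DNA, was higher at day 1 (0.64 ± 0.10) and did not pass later. Psip1, which tethers MLL complexes to chromatin, was at -0.93 at day 3. For H3K36, neither Nsd1 nor Setd2 passed: Nsd1 gave 0.24 ± 0.37 at day 1 and its day 0 arrays differed from each other by more than a log2 unit (7.15 and 5.91).

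Of the enzymes of silent marks, Ezh2, the catalytic subunit of Polycomb complex 2 in dividing cells, fell at day 2. It measured 9.73 and 9.28 at day 0, 9.21 and 9.42 at day 1, 8.15 and 8.13 at day 2 and 8.22 and 8.34 at day 3. The arrays of days 0 and 1 overlapped, and all 4 lay above those of days 2 and 3. The change was -0.19 ± 0.16 at day 1 (limma adjusted p = 0.373), -1.36 ± 0.16 at day 2 (limma adjusted p = 0.000371) and -1.22 ± 0.16 at day 3. The other probe of Ezh2, detected on 4 of 8 arrays, gave -0.56, -1.20 and -0.92, all called lower, day 1 included. Over the same days the S phase genes had a median of -1.18 at day 2 and -1.84 at day 3, and 13 mitosis genes a median of -1.18 and -2.03. Their part in the change of Ezh2 was not tested.

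Ezh1, the paralog known from cells that have stopped dividing, measured 5.44 and 6.11 at day 0, 5.12 and 5.25 at day 1, 5.53 and 6.03 at day 2 and 5.59 and 6.04 at day 3. The arrays of days 0, 2 and 3 overlapped, and it passed in no comparison (0.01 ± 0.27 at day 2). Its other probe, detected on 4 arrays, was called higher at days 2 and 3 (0.39 at both). Of 7 detected partners of the complex 2 were higher and none lower at day 1 (24.0% and 21.9% of all genes). At day 3, 1 was higher (29.2%) and 3 lower (29.8%). Phf19, a Polycomb-like accessory subunit, fell by 1.33 at day 2 (-1.33 ± 0.10) and stood at -1.71 at day 3, Suz12 was at -0.35 and -0.46, and Eed did not pass (-0.03 and 0.16). Aebp2 and Epop, accessory subunits, were higher at day 1 by 1.66 ± 0.15 and 1.54 ± 0.09. Of 13 detected genes of Polycomb complex 1, 6 were higher and 4 lower at day 3 (29.2% and 29.8% of all genes). Among them Cbx7 was higher at day 3 by 2.28 ± 0.21 and Phc2 lower by -1.13.

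The H3K9 methyltransferase genes moved little. Ehmt2, which codes for G9a, measured 10.53 and 10.55 at day 0, 10.61 and 10.62 at day 1, 10.12 and 10.23 at day 2 and 10.30 and 10.28 at day 3. The arrays of days 2 and 3 lay below those of days 0 and 1. The change was -0.37 ± 0.08 at day 2 (limma adjusted p = 0.00745) and -0.25 ± 0.08 at day 3 (limma adjusted p = 0.0338). The probes of Ehmt2 differed: another gave -0.31 and -0.30, called lower on both days, and a dim one gave 0.41 and 0.55, not called. Under median centring the day 3 change was -0.42. Averaged over its 3 probes, Ehmt2 gave -0.09 at day 2 and passed on neither day. The day 2 call was also lost without day 2 replicate 1 (adjusted p = 0.0523), and the day 3 call without any array of days 0, 1 or 3.

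Ehmt1, the partner of G9a known as GLP, measured 9.80 and 9.69 at day 0, 10.08 and 10.21 at day 1, 9.75 and 9.81 at day 2 and 9.68 and 9.56 at day 3. The day 1 arrays were the highest. It rose by 0.40 ± 0.10 (limma adjusted p = 0.014), a call lost without day 0 replicate 2 or day 1 replicate 2 (adjusted p = 0.0677 and 0.0863). The other 2 probes of Ehmt1, detected on all 8 arrays, gave 0.70 and 0.15 at day 1 (limma adjusted p = 0.0528 and 0.381) and were called in no comparison. Setdb1, which silences retroelements through H3K9 trimethylation, measured 8.52 and 8.56 at day 0, 8.82 and 8.76 at day 1, 8.64 and 8.79 at day 2 and 8.83 and 8.52 at day 3, and it passed in no comparison. Of 8 detected partners and readers of the mark 3 were higher and 1 lower at day 1 (24.0% and 21.9% of all genes). At day 3, 1 was higher (29.2%) and 4 were lower (29.8%). Uhrf1, which reads the mark during DNA replication, stood at -1.91 at day 3. Cbx5, which codes for HP1 alpha, stood at 0.56, -0.61 and -1.37 on days 1 to 3, and Trim28, the corepressor that recruits SETDB1, at 0.50, -0.48 and -0.69.

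The 3 detected Kmt5 genes, which code for H4K20 methyltransferases, were all higher at day 1 (24.0% of all genes). Kmt5c, known as Suv420h2 and required for H4K20 trimethylation in heterochromatin, measured 9.19 and 9.23 at day 0, 10.06 and 10.02 at day 1, 10.91 and 10.61 at day 2 and 11.06 and 11.05 at day 3. Each day lay above the one before, with no overlap of arrays. It rose by 0.83 ± 0.11, 1.55 ± 0.11 and 1.84 ± 0.11 (3.58-fold, limma adjusted p = 1.24e-05 at day 3), the largest increase among the 41 members. The step from day 2 to day 3 did not pass (0.29 ± 0.11, limma adjusted p = 0.115).

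Kmt5b, its paralog, was higher than at day 0 on all later days, by 0.27 ± 0.08, 0.53 ± 0.08 and 0.59 ± 0.08. The day 1 call of Kmt5b was lost without any single array other than day 2 replicate 2 (adjusted p up to 0.158), and both other detected probes were called higher on all 3 days. Under median centring the day 3 change of Kmt5b was 0.39. Kmt5a, which adds the first methyl group at H4K20, was higher at day 1 by 0.56 ± 0.15, and 0.36 and 0.23 at days 2 and 3 did not pass. The call at day 1 was lost without day 0 replicate 2 or either array of day 1 (adjusted p = 0.0981, 0.0666 and 0.0892). Of its other 3 probes, 2 detected on all arrays were called higher on every day, at 0.82 and 0.51 at day 1 and 1.26 and 0.69 at day 3.

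Of 36 members with a promoter window, 2 held the E2F pattern TTTNNCGC on either strand: Ezh2, which fell, and Kmt5c, which rose. The pattern stood in 4.26% of the members' windows, against 5.17% of all windows. Both windows, chosen after the search, are shown with that pattern in capitals. They are chr6:47594981-47595280 (minus strand) and chr7:4739877-4740176 (plus strand), as given by RefSeq on GRCm38.p6.
Ezh2: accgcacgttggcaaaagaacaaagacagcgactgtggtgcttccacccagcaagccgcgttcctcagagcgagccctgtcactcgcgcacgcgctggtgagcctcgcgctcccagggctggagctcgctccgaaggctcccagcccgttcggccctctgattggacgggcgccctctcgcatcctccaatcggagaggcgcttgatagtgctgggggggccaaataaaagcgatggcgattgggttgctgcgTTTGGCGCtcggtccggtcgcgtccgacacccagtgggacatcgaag
Kmt5c: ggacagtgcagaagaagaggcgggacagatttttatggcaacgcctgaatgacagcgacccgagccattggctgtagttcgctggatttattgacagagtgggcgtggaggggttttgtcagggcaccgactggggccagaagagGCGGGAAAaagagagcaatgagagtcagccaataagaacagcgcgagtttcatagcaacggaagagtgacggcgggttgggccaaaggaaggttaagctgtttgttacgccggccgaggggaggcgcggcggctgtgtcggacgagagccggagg

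**Figure D4:**
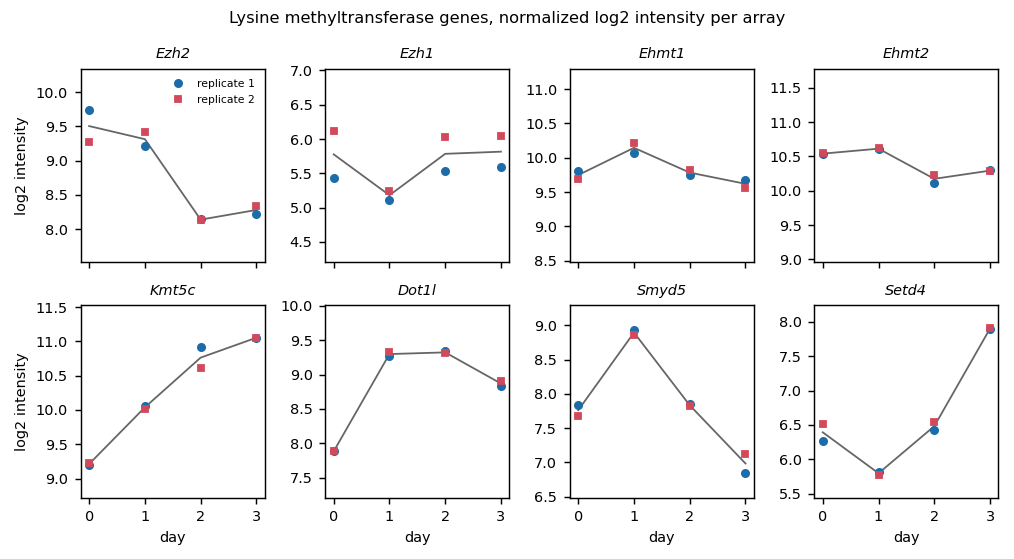
Lysine methyltransferase genes by day. Each panel gives 1 gene, with normalized log2 intensity on the vertical axis and the day on the horizontal axis; points are single arrays, lines join the day means, and all panels span the same range of log2 units. Kmt5c climbs on each day, Dot1l stays high from day 1, Ezh2 lies low at days 2 and 3, and Setd4 is at its highest at day 3.

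The SET and SMYD genes not grouped under a histone mark here changed in opposite ways. Smyd5 measured 7.84 and 7.68 at day 0, 8.93 and 8.86 at day 1, 7.85 and 7.82 at day 2 and 6.85 and 7.12 at day 3. The day 1 arrays were the highest and the day 3 arrays the lowest. It rose by 1.13 ± 0.12 at day 1 (limma adjusted p = 0.000323), and stood at -0.78 ± 0.12 at day 3 against day 0. Its other detected probe gave 1.29 and -0.93. With no background correction the day 3 change of Smyd5 was -0.42, still called. Setd6, which methylates the NF-kB subunit RelA in human cells, took the same course with 0.90 ± 0.12 at day 1 and -0.54 ± 0.12 at day 3.

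Setd4 measured 6.27 and 6.52 at day 0, 5.82 and 5.77 at day 1, 6.43 and 6.54 at day 2 and 7.89 and 7.91 at day 3. Both day 3 arrays lay above every other array, and both day 1 arrays below. It was lower at day 1 (-0.60 ± 0.11) and higher at day 3 by 1.51 ± 0.11 (2.85-fold, limma adjusted p = 2.44e-05). The step from day 2 to day 3 was 1.42 ± 0.11, the only called change of at least 2-fold among the 41 members in that comparison. Of all 8663 tested genes 122 were called higher and 35 lower there by at least 2-fold. The other probe of Setd4, detected on 3 arrays, gave -0.24 at day 3 and was called in no comparison. Averaged over both probes, Setd4 was higher by 0.64 at day 3 against day 0 and by 0.71 against day 2, still called and under 2-fold. With no background correction its changes were -0.19 at day 1 and 0.75 at day 3.

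Setd3, an actin histidine methyltransferase, measured 7.54 and 8.11 at day 0, 6.80 and 6.76 at day 1, 6.81 and 7.00 at day 2 and 7.28 and 7.36 at day 3. The day 0 arrays were the highest and the farthest apart. It fell by 1.05 at day 1 (-1.05 ± 0.18, limma adjusted p = 0.00328) and stood at -0.93 ± 0.18 at day 2, or at -0.56 and -0.50 with no background correction. The change of -0.51 ± 0.18 at day 3 became -0.22 without day 0 replicate 2 and -0.79 without day 0 replicate 1, and its call was lost without any array other than day 0 replicate 1 (adjusted p up to 0.169). Setd5 passed in no comparison (0.29 ± 0.15 at day 2).

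Of the demethylase genes, Kdm3a, Kdm4b, Kdm5b and Kdm6b rose most, and 6 of 11 Kdm genes did not pass at day 3 against day 0. Of these 11 genes 3 (Kdm1a, Kdm6b and Kdm8) were higher and 1 lower at day 1, against 24.0% and 21.9% of all genes. At day 2, 5 were higher and none lower (27.8% and 26.6% of all genes). At day 3 again 5 were higher and none lower (29.2% and 29.8%). Of these, 4 were higher by at least 2-fold, as were 1111 of all 8663 tested genes. Of the 28 methyltransferase genes and their relatives 16 were higher and 3 lower at day 1, and 4 higher and 9 lower at day 3. The difference between these sets was not tested.

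Kdm3a, which removes mono- and dimethyl groups from H3K9 and is known as a hypoxia-inducible gene, measured 8.96 and 8.67 at day 0, 9.06 and 8.88 at day 1, 10.49 and 10.34 at day 2 and 10.51 and 10.64 at day 3. The arrays of days 0 and 1 overlapped, and those of days 2 and 3 lay more than a log2 unit above them. It rose by 1.60 ± 0.13 at day 2 and 1.76 ± 0.13 at day 3 (3.38-fold, limma adjusted p = 3.35e-05), after 0.16 ± 0.13 at day 1 (limma adjusted p = 0.369). Its other 2 detected probes gave 1.56 and 1.43 at day 2.

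Kdm4b, which acts on trimethylated H3K9, measured 9.07 and 9.09 at day 0, 9.24 and 9.35 at day 1, 9.87 and 9.77 at day 2 and 10.19 and 10.24 at day 3. Each day lay above the one before. It was higher by 0.74 ± 0.09 at day 2 and 1.13 ± 0.09 at day 3 (limma adjusted p = 3.68e-05), and its other detected probe gave 0.71 and 0.86, both called. The step from day 2 to day 3 (0.40 ± 0.09) lost its call without any array of these days (adjusted p up to 0.114). Kdm4c, of the same subfamily, was lower at day 1 by -0.60 ± 0.18, a call lost without any array of days 0 or 1, and the change was -0.19 with no background correction.

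Kdm5b, an H3K4 demethylase, measured 5.85 and 5.64 at day 0, 4.98 and 5.74 at day 1, 6.52 and 6.75 at day 2 and 6.79 and 7.07 at day 3. At day 1 only 1 array detected it, and all arrays of days 2 and 3 lay above the earlier ones. It was higher by 0.89 ± 0.25 at day 2 and 1.19 ± 0.25 at day 3 (limma adjusted p = 0.0201 and 0.00518). The day 2 call of Kdm5b was lost without day 0 replicate 2 or day 2 replicate 2 (adjusted p = 0.0997 and 0.0962). Kdm5b lay near background, and with no background correction its changes were 0.30 at day 2 and 0.43 at day 3, still called and under 2-fold.

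The H3K27 demethylase genes differed in size. Kdm6b, known as JMJD3 and induced in activated macrophages, measured 6.70 and 6.91 at day 0, 7.83 and 7.49 at day 1, 8.15 and 8.17 at day 2 and 8.20 and 8.03 at day 3. Every array of days 1 to 3 lay above both day 0 arrays. It rose by 0.86 ± 0.14, 1.36 ± 0.14 and 1.31 ± 0.14 (limma adjusted p = 0.00261, 0.000205 and 0.000199), and its other detected probe gave 0.56, 1.25 and 1.39, all called. With no background correction Kdm6b was higher by 0.44, 0.75 and 0.72, still called and under 2-fold. The step from day 1 to day 2 (0.50 ± 0.14) lost its call without day 1 replicate 2, where it was 0.33, or without either array of day 2.

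Kdm6a, the X-linked paralog known as UTX, measured 9.47 and 9.35 at day 0, 9.12 and 9.18 at day 1, 9.55 and 9.39 at day 2 and 9.66 and 9.79 at day 3. The arrays of days 0 and 2 overlapped, and the day 3 arrays were the highest. Its change at day 3 was 0.32 ± 0.10 (limma adjusted p = 0.0296). The call was lost without day 0 replicate 2 or day 3 replicate 2, and under cyclic loess (0.26) and median centring (0.14). The other probe of Kdm6a, detected on all 8 arrays, gave 0.31 at day 3, called as well (limma adjusted p = 0.0461).

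Kdm1a, the amine oxidase known as LSD1, measured 9.92 and 9.98 at day 0, 10.52 and 10.69 at day 1, 10.26 and 10.24 at day 2 and 10.00 and 10.17 at day 3. The day 1 arrays were the highest, and the day 3 arrays lay just above those of day 0. It rose by 0.65 ± 0.10 at day 1 (limma adjusted p = 0.00206), and the 0.29 ± 0.10 at day 2 lost its call without any array of days 0, 1 or 2 (adjusted p up to 0.147). Of 8 detected corepressor partners of KDM1A 2 were higher at day 1 (24.0% of all genes), and 5 were higher (29.2%) and 1 lower (29.8%) at day 3. Gfi1b, a repressor that recruits LSD1, was not detected at day 0, and its day 1 level exceeded that day by at least 4.54-fold (limma adjusted p = 0.000143). For the bound, arrays without detection were given the lowest value detected on them, or the probe's own where that is higher. Hmg20b and Rcor1, which belong to the same complex, were higher at day 3 by 1.53 ± 0.09 and 0.90 ± 0.17, and Hdac1 was lower (-0.80 ± 0.10).

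Kdm8 was higher at day 1 by 0.54 ± 0.11 and lower at day 2 than at day 1 by -0.53 ± 0.11, and both calls were lost without day 1 replicate 2 (adjusted p = 0.0502 and 0.0524). The other probe of Kdm8, detected on all 8 arrays, gave 0.20 and -0.25 (limma adjusted p = 0.347 and 0.236) and was called in no comparison. Jmjd6 was higher by 0.57 ± 0.09 at day 1, and Jmjd8, a protein of the endoplasmic reticulum, by 0.35 ± 0.11 at day 3, a call lost without day 0 replicate 1 or day 3 replicate 2 and under median centring (0.15). Kdm1b, Kdm2b and Kdm5c passed in no comparison.

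**Figure D5:**
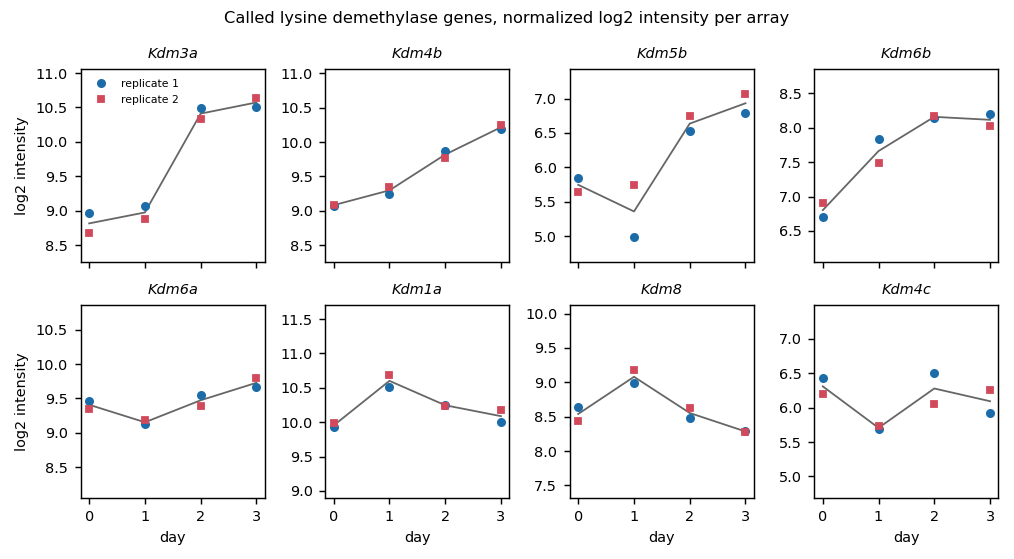
Lysine demethylase genes with a call in at least 1 comparison, by day. Each panel gives 1 gene, with normalized log2 intensity on the vertical axis and the day on the horizontal axis; points are single arrays, lines join the day means, and all panels span the same range of log2 units. Kdm3a, Kdm4b, Kdm5b and Kdm6b are higher at days 2 and 3 than at day 0 on both arrays, and Kdm1a and Kdm8 are highest at day 1.

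In all, 10 of the 41 members passed in no comparison: Ezh1, Kdm1b, Kdm2b, Kdm5c, Nsd1, Setd2, Setd5, Setd7, Setdb1 and Smyd1. Another 9 genes on the array were not detected: Jmjd1c, Jmjd4, Kdm4a, Kdm4d, Kdm5d, Prmt8, Prmt9, Smyd3 and Suv39h2. Setd7, with 2 arrays detected, lay just inside the limit, and Kdm5d and Smyd3, with 1 array each and signals of 146.2 to 174.9 and 156.4 to 181.4, just outside. Of the members, 21 had other detected probes, 30 in number. None of the 30 was called in the direction opposite to the gene's own probe. A member's call was counted once for each of its other probes, which gave 74 comparisons, and in 49 the other probe had the same call.

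Other enzymes of histone modification gave a mixed picture. Of 13 detected genes of related enzymes with other symbols 1 was higher and 1 lower at day 1 (24.0% and 21.9% of all genes). At day 3, 3 were higher (29.2%) and 5 lower (29.8%). Padi2, a peptidylarginine deiminase, was not detected at day 0 and reached at least 3.53-fold that level by day 3. Prdm1, the repressor Blimp-1, was likewise undetected at day 0 and by day 2 had risen at least 1.85-fold (limma adjusted p = 2.54e-05 and 0.0152). Of 9 histone acetyltransferase genes none was higher at day 1 (24.0% of all genes). Kat2b was higher at day 3 by 1.00 ± 0.17 and Kat2a lower by -1.03 ± 0.20. Of 13 deacetylase genes 4 were higher and 3 lower at day 1 (30.8% and 23.1%, against 24.0% and 21.9% of all genes), with Sirt6 at 1.15 ± 0.20. Sirt3, the mitochondrial sirtuin, was 1.88 ± 0.10 higher at day 3.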

How the data were processed

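Gene expression was measured on 8 single-colour MouseRef-8 v2.0 bead arrays, 2 for each of 4 days. The authors deposited an intensity for each probe on each array, per the file headers. Judged from its values it is linear, with no background subtracted and no normalization. A detection p-value for each signal was deposited by the authors, per the file headers. The authors' processed intensity values, on a linear scale with an unstated background change, lacked 56 probes and served as an alternative. Scanner software: not given in the sources used here.

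Signals were processed with neqc of limma 3.58.1 in R 4.3.3 (normexp from the detection p-values, offset 16, quantile normalization, log2). Of 25697 probes 23978 carried 1 gene symbol, from the platform annotation, and 1719 none; matching by Entrez number to RefSeq (GRCm38.p6) changed 0 symbols. The detection rule (p-value under 0.05, 2 or more of 8 arrays) was applied per probe, and the probe with the highest mean log2 value stood for its gene, which for all 41 members was also the probe with the highest mean signal. Day means of 8663 genes were compared in 1 fit (lmFit, eBayes, 4 residual degrees of freedom) with Benjamini-Hochberg adjustment per comparison over all genes. The number of arrays limits the precision: the median standard error of a difference was 0.12. Lists are given as counts and medians, with no test of the list.

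The gene set, the lists and the tests were chosen with earlier results of these data known. Values on every array are given for 20 members: 12 listed by name (Ezh1, Ezh2, Ehmt1, Ehmt2, Dot1l, Kdm6a, Kdm6b, Kdm1a, Carm1, Prmt1, Prmt5, Setdb1) and the 8 others with the largest called change from day 0. Partner genes were named from the 4 largest called changes of each list; Eed, Suz12, Wdr5, Ash2l and Wdr77 lie outside that rule and were chosen after their values were seen. The motifs were chosen with the expression results known, and the promoters shown after the windows had been searched. The model was tested on simulated data. The 18 alternatives were other background corrections, values, normalizations, filters and probe rules, a replicate block and each array left out.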

Additional observations from a re-analysis of the deposited data

How the results depend on the processing

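No call of a member changed direction under any of the 18 alternatives. Of 93 calls over the 5 comparisons 58 were kept under every alternative that measured the gene, and 35 were lost under at least 1. All 26 called changes of at least 2-fold stayed called, but not all stayed at 2-fold. The smallest values were 0.40 for Kdm5b at day 2 against day 1, 0.43 for Kdm5b at day 3 and -0.56 for Setd3 at day 1. Other small values were 0.64 for Setd4 and 0.72 for Kdm6b at day 3 and -0.73 for Carm1 at day 2 against day 1. The numbers of members higher or lower at days 1, 2 and 3 against day 0 stayed within 1.5 times under every alternative. With an array left out, they were 15 to 20 higher and 3 to 4 lower at day 1, 7 to 12 and 3 to 6 at day 2, and 9 to 11 and 6 to 9 at day 3. For day 2 against day 1, 5 members were higher under median centring in place of 10, and 5 to 10 were higher and 10 to 17 lower with an array left out. For day 3 against day 2, 2 members were higher in the reported fit, 4 with no background correction, and 1 under median centring, with the mean over detected probes, or with only the arrays of the compared days, where a pair of arrays per day is all that estimates the spread; 1 to 3 were higher with an array left out. In the same comparison 8 were lower in the reported fit, 5 with no detection filter (more genes tested), 4 with only the arrays of the compared days, and 1 to 8 with an array left out. The causes of these differences were not tested. Under median centring the median change of all genes was 0.12 at day 1 against day 0, in place of 0.03, and -0.13 at day 2 against day 1, in place of -0.02, and 62.3% of all called genes were then higher at day 1, in place of 52.3%; the members counted 21 higher and 4 lower. For day 2 against day 1 and for day 3 against day 2 it gave 36.5% and 31.0% higher, in place of 48.2% and 48.4%. Deviations of arrays with the same replicate number correlated at -0.08 to 0.07 between days, over all tested genes. Whether arrays of the same number share a culture or animal cannot be told from these values. With the replicate block 19 members were higher and 5 lower at day 1, 9 and 4 at day 2, and 10 and 9 at day 3. A slide block was not run, since the headers name no slide. With 2 arrays per day, no test for outlying arrays within a day was possible. Genes near background, such as Setd7 and Kdm5c, have only weak limits on their change.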
